A study of Mus musculus with 6 samples.

Results

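The ubiquitin and proteasome genes described here are the genes of 5 name families: the E2 conjugating enzymes (Ube2), the tripartite-motif proteins (Trim), the F-box proteins (Fbxl, Fbxo and Fbxw), the ubiquitin-specific proteases (Usp) and the proteasome subunits and partners (Psm). They were chosen by gene name alone, among the genes that the deposited peak tables list as nearest to a peak of hnRNP UL1. A total of 102 such genes had at least 1 peak, out of 5701 named genes in the tables: 24 Psm, 23 F-box, 19 Ube2, 19 Usp and 17 Trim genes. The name rule goes by prefix, so it can take in genes of other function, also among the RefSeq genes counted below. An example is Usp6nl, which encodes a Rab GTPase-activating protein and no protease.

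hnRNP UL1 is a nuclear RNA-binding protein. Its chromatin was immunoprecipitated and sequenced in RAW 264.7 cells, an established mouse macrophage line with no genetic change named in the labels. Cells at 0 h were untreated, and cells at 4 h and 10 h had received lipopolysaccharide (LPS), an endotoxin of bacteria that is sensed through Toll-like receptor 4, at 100 ng/ml. The series has 6 samples, namely 1 ChIP and 1 input library at each of the 3 times, and the inputs were not analysed here. With 1 library per time nothing could be tested between times, and every interval below is an exact 95% interval that covers counting error only.

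Ubiquitin is activated by an E1 enzyme, passed to an E2 conjugating enzyme and placed on a target protein by an E3 ligase. Many Trim proteins are RING-type E3 ligases, and F-box proteins are the substrate receptors of cullin-based ligases. Usp enzymes take ubiquitin off again, and the proteasome, a barrel of alpha and beta rings with a regulatory cap, degrades the marked proteins. In macrophages, ubiquitin chains relay signals from Toll-like receptors, and degradation of the inhibitor IκBα frees NF-κB.

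Each peak is deposited as a point 2 bp wide with the nearest gene and the distance to its start, without height or significance. The start listed is that of a transcript of the gene and can lie far from the 5′ end of the gene. Promoter sequence could be set beside some of these points. The RefSeq promoter windows of build GRCm38.p6 run from 250 bases before to 50 bases after a start, 300 bases in all, and exist for 76 of the 102 genes. A point fell inside the window of 11 genes. At 0 h these were Psmd1, Psme4, Psmc6, Ube2f, Ube2r2, Trim21, Fbxo9 and Fbxo33, and at 4 h they were Psmc6, Fbxo9, Usp8, Psmb5 and Psmg1. The windows of 5 genes follow, 1 for each family, with Psmc6 and Fbxo9 shown because both carried a point at 0 h and again at 4 h. They are written 5′ to 3′ on the strand of the gene, and capitals mark the motif matches named after them.
Psmc6: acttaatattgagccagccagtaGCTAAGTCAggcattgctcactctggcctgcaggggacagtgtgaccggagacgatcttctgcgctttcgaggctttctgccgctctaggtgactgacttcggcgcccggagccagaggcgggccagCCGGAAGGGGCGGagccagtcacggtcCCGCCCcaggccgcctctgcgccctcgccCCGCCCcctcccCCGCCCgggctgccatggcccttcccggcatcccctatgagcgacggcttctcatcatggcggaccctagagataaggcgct
Fbxo9: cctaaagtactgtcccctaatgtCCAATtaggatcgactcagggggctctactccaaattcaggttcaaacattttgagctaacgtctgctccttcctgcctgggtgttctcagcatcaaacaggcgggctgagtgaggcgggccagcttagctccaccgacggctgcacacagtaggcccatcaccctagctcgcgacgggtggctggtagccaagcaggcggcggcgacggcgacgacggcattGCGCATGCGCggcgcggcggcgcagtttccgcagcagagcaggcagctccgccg
Ube2f: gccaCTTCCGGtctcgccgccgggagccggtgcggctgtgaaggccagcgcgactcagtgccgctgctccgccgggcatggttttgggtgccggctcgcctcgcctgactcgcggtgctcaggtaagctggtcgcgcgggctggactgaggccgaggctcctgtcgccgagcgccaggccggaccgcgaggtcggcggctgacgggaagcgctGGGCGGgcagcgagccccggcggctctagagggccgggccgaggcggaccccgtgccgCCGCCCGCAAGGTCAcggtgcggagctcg
Trim21: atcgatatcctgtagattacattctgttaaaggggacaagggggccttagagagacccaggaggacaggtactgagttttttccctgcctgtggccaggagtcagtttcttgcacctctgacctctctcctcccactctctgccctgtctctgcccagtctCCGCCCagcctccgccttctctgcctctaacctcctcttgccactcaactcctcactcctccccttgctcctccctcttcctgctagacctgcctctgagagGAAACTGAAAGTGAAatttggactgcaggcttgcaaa
Usp8: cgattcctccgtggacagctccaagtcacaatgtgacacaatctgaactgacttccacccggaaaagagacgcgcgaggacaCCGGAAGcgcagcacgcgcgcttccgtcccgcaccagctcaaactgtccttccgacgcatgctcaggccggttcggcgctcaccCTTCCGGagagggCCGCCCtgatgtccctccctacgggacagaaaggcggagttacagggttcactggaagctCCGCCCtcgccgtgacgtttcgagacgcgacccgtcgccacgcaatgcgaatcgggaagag

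Psmc6 encodes an ATPase of the proteasome cap, and its window is chr14:45329574-45329873 on the plus strand. The 0 h point stood at base 111 of the window and the 4 h point at base 138. Both lay ahead of a stretch that holds 4 GC boxes (GGGCGG, from bases 158, 178, 207 and 219) and 1 ETS core (CCGGAAG, from base 151). The same window holds the core of an antioxidant response element, TGACNNNGC, from base 24. The window of Fbxo9, an F-box protein gene, is chr9:78108607-78108906 on the minus strand, with the 0 h point at base 57 and the 4 h point at base 38. It holds a CCAAT box from base 24 and, at the start itself, the NRF1 core GCGCATGCG on both strands, from bases 247 and 248.

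Ube2f encodes an E2 for the ubiquitin-like protein NEDD8, and its window is chr1:91250316-91250615 on the plus strand. Its 0 h point was at base 158, ahead of GC boxes from bases 214 and 272 and an antioxidant element core from base 278, and an ETS core starts at base 5. Trim21 encodes a cytosolic antibody receptor with E3 ligase activity. Its window, chr7:102565433-102565732 on the minus strand, had the 0 h point at base 38 and holds overlapping cores of the interferon-stimulated response element (GAAANNGAA) from bases 264 and 270 and a GC box from base 162. Usp8, a deubiquitinase of the endosomal pathway, had its 4 h point at base 27 of chr2:126707078-126707377 on the plus strand, with ETS cores from bases 83 and 167 and GC boxes from bases 180 and 240.

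Motifs were searched on both strands and are descriptions of the letters, not of binding. A GC box was found in 53.9% of the 282 windows of the 5 families, in 35.7% of all 32851 windows and in 70.4% of the 452 windows that held a 0 h point of any gene. The ETS core was in 19.5% of the family windows, 8.86% of all windows and 24.3% of the windows with a 0 h point. The CCAAT box ran the other way, at 33.7%, 37.4% and 24.6%. The interferon element core was in 13.1% of the family windows, against 8.56% of all windows and 6.19% of those with a 0 h point. The antioxidant element core was in 14.9% of the family windows, 12.4% of all windows and 17.5% of those with a 0 h point, and the NRF1 core in 3.55%, 1.75% and 3.10%. Also searched were the TATA box TATAAA (7.80%, 13.6% and 7.52%), the cyclic AMP element TGACGTCA (2.13%, 1.79% and 1.77%) and the E-box CACGTG (7.45%, 7.15% and 13.7%). The median GC content was 58.8% in the family windows, 52.7% in all windows and 66.7% in those with a 0 h point, so windows that held a point were richer in GC than windows at large, and the family windows lay between them.

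The tables differ in extent, which sets what can be compared. At 0 h 8425 peaks are listed, at 4 h 9046 complete ones and at 10 h 1153. All are ordered by Ensembl gene number, and the 4 h and 10 h tables end at genes numbered 27620 and 22416, far below the last gene of the 0 h table, 117337. Resting cells were therefore described from the whole 0 h table, 0 h and 4 h were compared below the first of these numbers (the longer range, 53 family genes with a peak) and all 3 times below the second (the common range, 38 genes). A further 44 family genes with a 0 h peak lie beyond both LPS tables and were not compared. Genes that mark macrophages were named by 0 h peaks in 5 of 12 cases and T and B cell genes in 1 of 8. The share over all protein-coding genes was 15.6%, and a peak is no measure of expression.

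In resting cells 61 of the 290 RefSeq genes of the 5 families were named by a peak, which is 21.0% (95% interval 16.5 to 26.2%), against 15.6% of all 21896 protein-coding genes. The E2 enzymes had the highest share of the 5 families, 12 of 37 genes or 32.4% (18 to 49.8%). Proteasome genes followed with 12 of 51 (23.5%, 12.8 to 37.5%), then F-box genes with 18 of 78 (23.1%) and Usp genes with 11 of 56 (19.6%). Trim genes had the lowest share, 8 of 68 (11.8%, 5.22 to 21.9%). The intervals of the 5 families overlap one another, and that of the E2 enzymes was the 1 family interval that lay wholly above the share of all genes. The families together took 82 of the 8425 peaks, or 9.73 per 1000 (7.75 to 12.1), with a median of 1 peak per gene and at most 4.

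**Figure D1:**
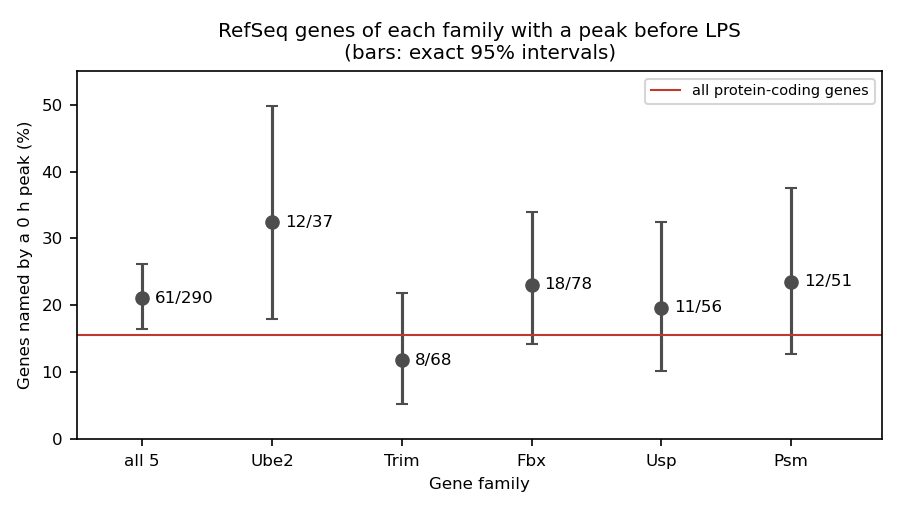
Percent of the RefSeq genes of each family (x axis) that were named by at least 1 peak at 0 h (y axis), with exact 95% intervals as bars and the gene counts beside the points. The red line is the 15.6% of all protein-coding genes; the Ube2 point, at 32.4%, is the highest and the Trim point, at 11.8%, the lowest.

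Among the E2 enzymes at 0 h, Ube2d3, which works with many RING ligases, had 3 peaks. They lay 322 and 954 bases past the 5′ end of the gene and, 29077 bases past it, in the 3′ UTR. Its relative Ube2d2a and the NEDD8 enzyme Ube2f had 2 each. Single peaks named 9 more E2 genes, including Ube2n, which builds the lysine 63-linked chains of Toll-like receptor signalling, Ube2r2, Ube2l3 and Ube2h. Of the 16 E2 peaks, 8 were within 1 kb of a start (95% interval 24.7 to 75.3%), against 27.4% of all 0 h peaks.

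The E3 side was uneven at rest. Trim33, a nuclear Trim protein that acts in transcription, had 2 peaks at 0 h, and Trim13, Trim14, Trim21, Trim36, Trim41, Trim45 and Trim65 had 1 each. Of the F-box genes, Fbxw7, the substrate receptor for Myc, Notch and cyclin E, had 4 peaks, but 3 of them lay 34621 to 37818 bases upstream of the gene in an intron of an unnamed gene, and the other lay 112433 bases past the 5′ end. Fbxl17, Fbxo22, Fbxo42, Fbxw4 and Fbxw11 had 2 peaks each. Fbxl5, which controls an iron regulatory protein, had 1 peak close to the start, 191 bases past the 5′ end.

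Usp genes had the lowest share of peaks at starts among the 5 families at rest. Usp6nl led with 4, all between 5077 and 28066 bases upstream of it, in introns of an unnamed gene. Usp3 and Usp49 had 2 each, and Usp10, Usp18 (which removes the ubiquitin-like protein ISG15), Usp19, Usp20, Usp25, Usp36, Usp37 and Usp42 had 1 each. Of the 16 peaks of the family 3 were within 1 kb of a start (18.8%, 4.05 to 45.6%). This interval includes the 27.4% of all 0 h peaks and the 35.0% of those of other protein-coding genes. Only that of Usp19 was near the 5′ end of its gene, 296 bases past it. Those of Usp18 and Usp42 lay 15454 and 27349 bases past it, at other listed starts.

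Proteasome genes lay at the other end of this scale, with 10 of 15 peaks within 1 kb of a start (66.7%, 38.4 to 88.2%) and a median distance to the start of 118 bases. The share within 1 kb was 27.4% over all 0 h peaks and 35.0% over those of other protein-coding genes. The same median was 2560.5 bases over all 82 family peaks and 5665 bases over all peaks of the 0 h table. Over the 0 h peaks of other protein-coding genes it was 3893 bases. Psmb10, a catalytic subunit of the immunoproteasome, had 2 peaks, 382 and 2344 bases past its 5′ end, while no 0 h peak named its partners Psmb8 and Psmb9. Psmd1 and Psmd11, both subunits of the cap, also had 2 peaks. Single peaks named the beta subunit Psmb5, the cap subunits Psmc6, Psmd7 and Psmd14, the alpha subunit Psma3, the activators Psme2b, Psme3 and Psme4 and the assembly chaperone Psmg4. Counted by name prefix, peaks named 1 of 8 Psma (alpha-ring) genes and 2 of 11 Psmb (beta-ring) genes. For the cap they named 1 of 7 Psmc genes, mainly ATPases, and 4 of 14 Psmd genes, mainly other subunits. They also named 3 of 6 Psme genes, mainly activators, and 1 of 4 Psmg (assembly chaperone) genes, but not the inhibitor gene Psmf1. A prefix can take in genes that are not parts of the complex, so these are counts of names. Of all protein-coding genes 15.6% were named at 0 h, and counts this small do not set the prefixes apart.

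After 4 h of LPS the family genes of the longer range had 139 peaks in 50 genes, against 21 peaks in 17 genes at 0 h. The table as a whole grew as well, from 2225 to 9045 peaks in this range. Family peaks thus increased 6.62-fold and all peaks 4.07-fold, and the family share went from 9.44 to 15.4 peaks per 1000, a ratio of 1.63 (1.02 to 2.71). That lower bound is close to 1, and without Usp25, the gene with the most peaks, the ratio was 1.53 (0.947 to 2.59). Of the 53 genes, 43 had more peaks at 4 h than at 0 h (81.1%, 68.0 to 90.6%), against 80.9% of all 3435 genes of the range, so the share of genes that gained peaks was that of genes in general. Fewer peaks at 4 h were listed for 4 of the 53 genes (7.55%), against 10.8% of all genes, and Psmd1, Ube2a and Usp19 were among them.

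The families differed in these counts. Usp genes went from 3 to 42 peaks, a ratio of shares of 3.44 (1.10 to 17.4), which was 3.32 (0.836 to 28.9) without Usp25. Trim genes went from 0 to 25 peaks, where 0 of 2225 allows a share of up to 0.135%. Taken against that limit of 3 peaks, the Trim share at 4 h was 2.05-fold. Without Trim25 it was 0.985-fold, so an increase was not shown there. Neither value takes in the counting error of the 4 h peaks. Proteasome genes went from 7 to 33 peaks (1.16, 0.504 to 3.11) and E2 genes from 3 to 15 (1.23, 0.348 to 6.63). F-box genes went from 8 to 24 peaks (0.738, 0.321 to 1.90), of which Fbxw11 held 2 and 10. Usp25 held 15 of the 42 Usp peaks at 4 h, and Trim25 held 13 of the 25 Trim peaks.

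**Figure D2:**
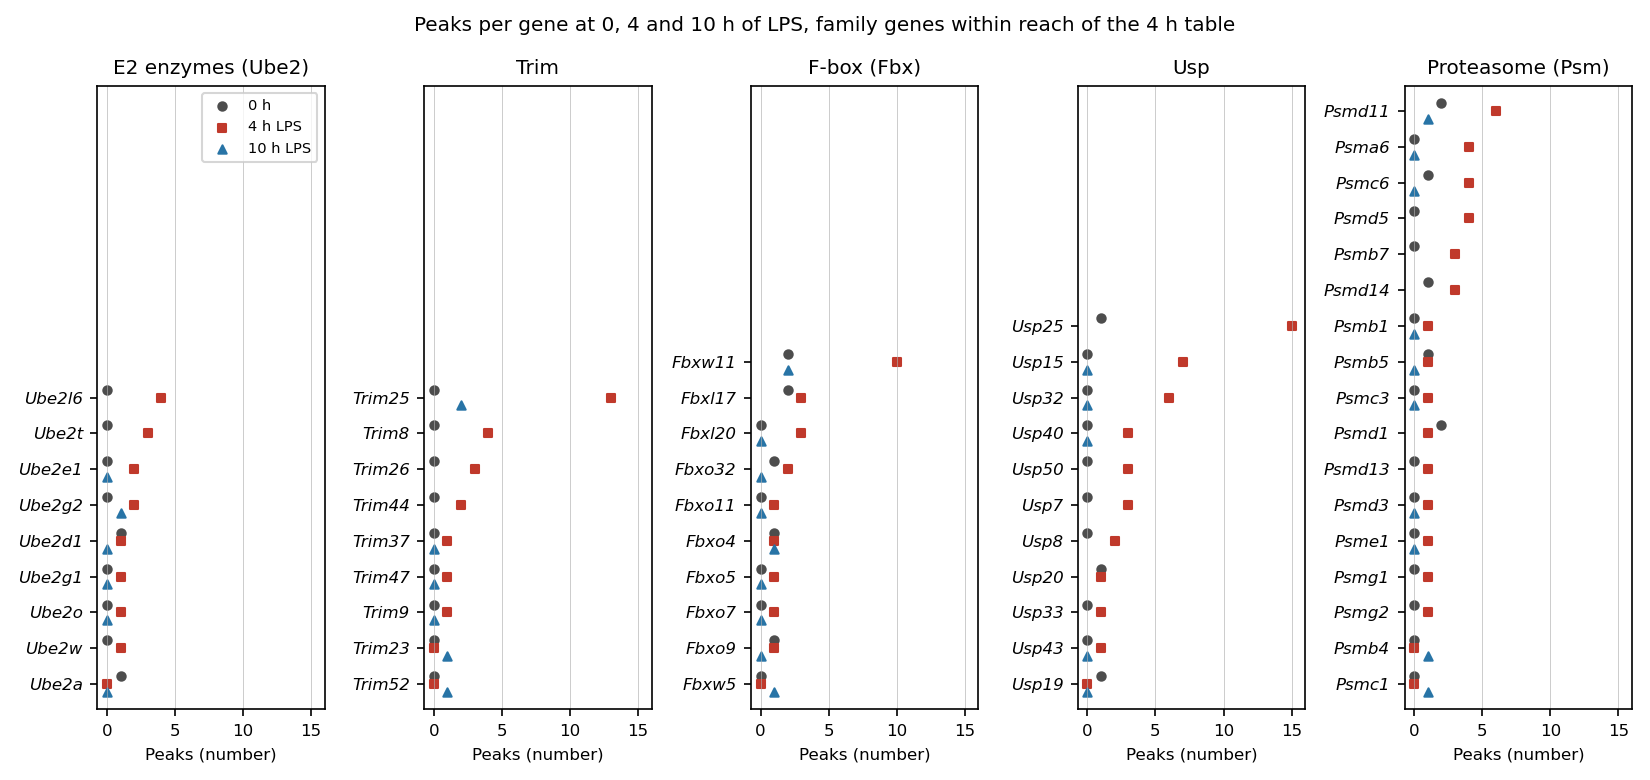
Number of peaks that name each gene (x axis) at 0 h (circles), 4 h (squares) and 10 h (triangles) of LPS, for family genes within reach of the 4 h table, in 5 panels. Genes without a triangle lie beyond the 10 h table; Usp25 with 15 and Trim25 with 13 peaks at 4 h stand farthest to the right.

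In the longer range 7 of the 53 genes had no peak at 0 h and at least 4 at 4 h (13.2%, 5.48 to 25.3%), against 8.36% of all genes of the range. They were Trim25, Trim8, Usp15, Usp32, Psma6, Psmd5 and Ube2l6. The longest runs of peaks are described next, each with its counts at every time that covers the gene.

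Trim25 (ENSMUSG00000000275, chr11:88999403-89020294), an E3 ligase that activates the viral RNA sensor RIG-I, was named by 0 peaks before LPS, by 13 after 4 h and by 2 after 10 h. The 4 h points ran from 796 bases past the 5′ end to 24308 bases past it, with a median gap of 1699 bases. Of these, 11 lay inside the gene, or 5.27 per 10 kb. They comprised 1 promoter peak, 6 intron peaks, 1 exon peak and 2 in the 3′ UTR, with 2 distal ones behind the gene and 1 that the tables place between 2 and 3 kb from the start. At 4 h points thus stood along the whole gene, with gaps of up to 4033 bases, after none at 0 h. In the common range 57 of 2104 genes had as many peaks at 4 h, and 15 of these had none at 0 h.

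Usp25 (ENSMUSG00000022867, chr16:77013684-77116783), a deubiquitinase studied in innate immune signalling, had 1 peak at 0 h and 15 at 4 h, and lies beyond the 10 h table. The points spread over 107.862 kb, with 13 in introns, 2 distal and none within 1 kb of a start. Inside the gene this came to 1.26 per 10 kb, below the 5.27 of Trim25. As many peaks at 4 h were listed for 65 of 3435 genes (1.89%).

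Fbxw11 (ENSMUSG00000020271, chr11:32642555-32746816) encodes a substrate receptor that recognises phosphorylated IκBα. Peaks named it 2 times at 0 h, 10 times at 4 h and 2 times at 10 h. The 0 h points were 23015 bases upstream, in an intron of Stk10, and 13594 bases past the 5′ end. At 4 h, 8 points lay in the gene, 6 of them in introns between 28179 and 54032 bases, and at 10 h the points were 2616 and 39322 bases past the 5′ end. No 0 h point was close to those of 4 h, while both 10 h points fell into the stretches that carried 4 h points.

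Usp15, a deubiquitinase, had 0, 7 and 0 peaks at 0, 4 and 10 h, 6 of them inside the gene. Usp32 had 0, 6 and 0, of which 1 stood 119 bases ahead of the 5′ end, 2 farther upstream and 3 in introns near the far end, 124230 to 146344 bases along. Psmd11, a subunit of the proteasome cap, had 2, 6 and 1 peaks. Its 0 h points were 6390 bases upstream and 118 bases past the 5′ end, whereas 5 of the 6 points at 4 h lay 23989 to 39811 bases into the gene. Most 4 h points of Usp15 and Psmd11 were inside the gene and away from its 5′ end, and those of Usp32 were split between both ends.

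**Figure D3:**
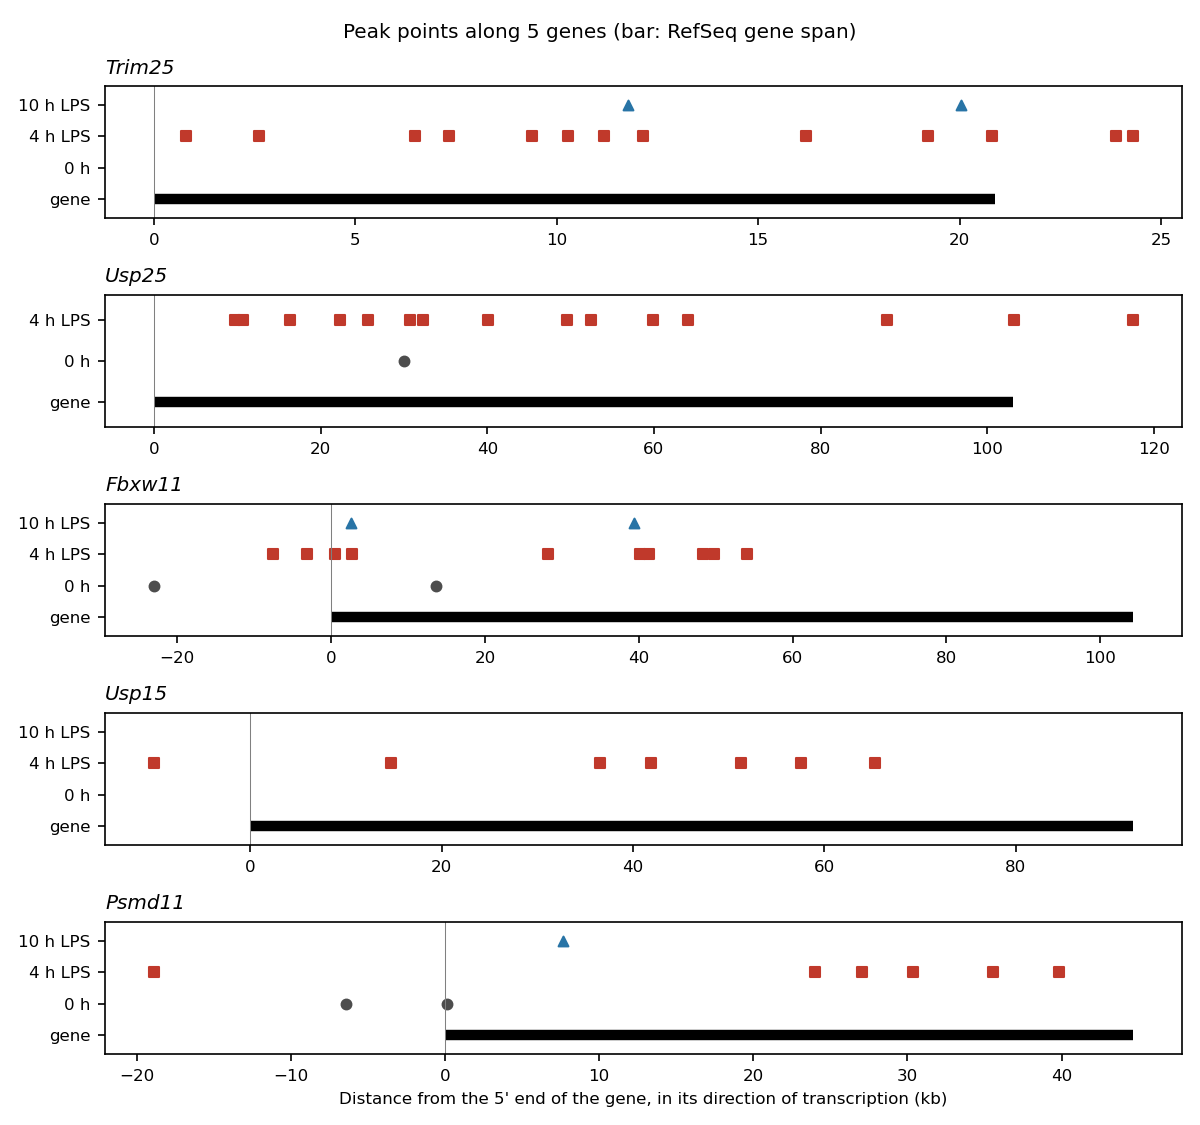
Peak points along 5 genes by distance from the 5′ end of the gene in kb (x axis, its own scale in each panel) at each time (rows), with the RefSeq gene span as a black bar. Trim25 and Usp25 have points through most of their span at 4 h, with gaps of up to 4033 and 23955 bases. The 2 points of Psmd11 at 0 h stay at or ahead of the 5′ end. Usp25 has no 10 h row because the 10 h table does not reach it.

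Smaller runs at 4 h involved further proteasome genes. Psmc6 had 1, 4 and 0 peaks at 0, 4 and 10 h. Psmd5, a chaperone of cap assembly, had 0 and 4 peaks, 1 of them in an unnamed gene 13993 bases upstream. Psmb7, a catalytic beta subunit, had 0 and 3, of which 2 were within 1 kb of the start. Psmd14, the deubiquitinase of the cap, had 1 and 3, with the 4 h points 187, 1648 and 19769 bases past the 5′ end. The other 9 proteasome genes with a peak at 4 h had 1 each, among them Psmb5, the activator gene Psme1 and the assembly chaperones Psmg1 and Psmg2.

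Among the E2 enzymes Ube2l6, which conjugates ISG15, had 0 peaks at 0 h and 4 at 4 h, of which 2 lay inside the gene. Ube2t, an E2 of the Fanconi anaemia pathway, had 0 and 3 peaks, none of them inside the gene, since the points lay 21994 to 29433 bases past its 5′ end and the gene is 11.6 kb long. Ube2e1 had 0 and 2 peaks and Ube2g2, an E2 of protein degradation at the endoplasmic reticulum, 0, 2 and 1. Ube2a had 1 peak at 0 h and none at 4 h or 10 h.

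Of the other ligases, Trim8 had 0 peaks at 0 h and 4 at 4 h, Trim26 0 and 3, and Trim44 0 and 2. Trim9, Trim37 and Trim47 had 1 each at 4 h. Fbxl17 had 2 and 3 peaks, Fbxl20 0, 3 and 0, and Fbxo32, an F-box protein known from muscle wasting, 1, 2 and 0. All 3 Fbxo32 points were 21877 to 47698 bases upstream in an unnamed gene. Among the deubiquitinases Usp7, which acts on Mdm2 and p53, and Usp50 had 0 and 3 peaks, Usp40 0, 3 and 0, and Usp8 0 and 2.

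At 10 h the common range held 12 peaks of 10 family genes, against 14 peaks of 12 genes at 0 h and 80 peaks of 30 genes at 4 h. All peaks in the range numbered 1152, 1312 and 5298. The ratio of the family share at 10 h to that at 0 h was 0.976 (0.412 to 2.27), that of 10 h to 4 h was 0.690 (0.342 to 1.27), and that of 4 h to 0 h in this range 1.42 (0.796 to 2.70). All 3 intervals include 1, and each allows a change of more than 2-fold in at least 1 direction. By family and in the order 0, 4 and 10 h, the E2 enzymes had 3, 7 and 1 peaks, Trim genes 0, 16 and 4, F-box genes 6, 21 and 4, Usp genes 1, 17 and 0 and proteasome genes 4, 19 and 3. The 0 Usp peaks of 1152 allow a share of up to 0.260%, and the single Usp peak of 1312 at 0 h is itself below that limit, so no difference between these times was detectable.

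A peak at 10 h and none at 0 h was listed for 7 of the 38 genes (18.4%, 7.74 to 34.3%), against 17.4% of all 2104 genes of the range. They were Trim23, Trim25, Trim52, Fbxw5, Ube2g2, Psmb4 and Psmc1. Peaks at all 3 times were found in 3 genes (7.89%, 1.66 to 21.4%), against 13.1% of all genes. These were Psmd11, Fbxw11 and Fbxo4, the last with 1 peak at each time. Both shares included the value of all genes in their interval.

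The share of peaks at starts was lower after LPS than before, for the family genes and for all genes. At 0 h, 34 of the 82 family peaks were within 1 kb of a start (41.5%, 30.7 to 52.9%), against 35.0% (33.7 to 36.3%) of the peaks of other protein-coding genes. In the longer range the family share was 9 of 21 (42.9%, 21.8 to 66.0%) at 0 h and 32 of 139 (23.0%, 16.3 to 30.9%) at 4 h, against 33.4% and 19.9% for all peaks. In the common range it was 8 of 14 (57.1%, 28.9 to 82.3%) at 0 h, 19 of 80 (23.8%, 14.9 to 34.6%) at 4 h and 3 of 12 (25.0%, 5.49 to 57.2%) at 10 h, against 34.5%, 20.1% and 20.8% for all peaks. Whether the family share moved by more than that of all peaks was not tested. Introns held 46.0% of the family peaks at 4 h and 41.2% of all peaks. Proteasome genes kept the highest promoter share of the families at 4 h, 12 of 33 (36.4%, 20.4 to 54.9%), and Usp genes the lowest, 6 of 42 (14.3%, 5.43 to 28.5%). Some of these starts are not the 5′ end of the gene. The points of Usp15 and Usp40 lay 14730 and 31801 bases past it, and those of Usp8 and Usp32 97 and 119 bases ahead of it. Those of Usp7 lay 19658 bases past it and 35038 bases ahead. The points of Psmd11 and Psmd13 lay 27059 and 12343 bases past it, and the other proteasome ones at most 529 bases from it.

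**Figure D4:**
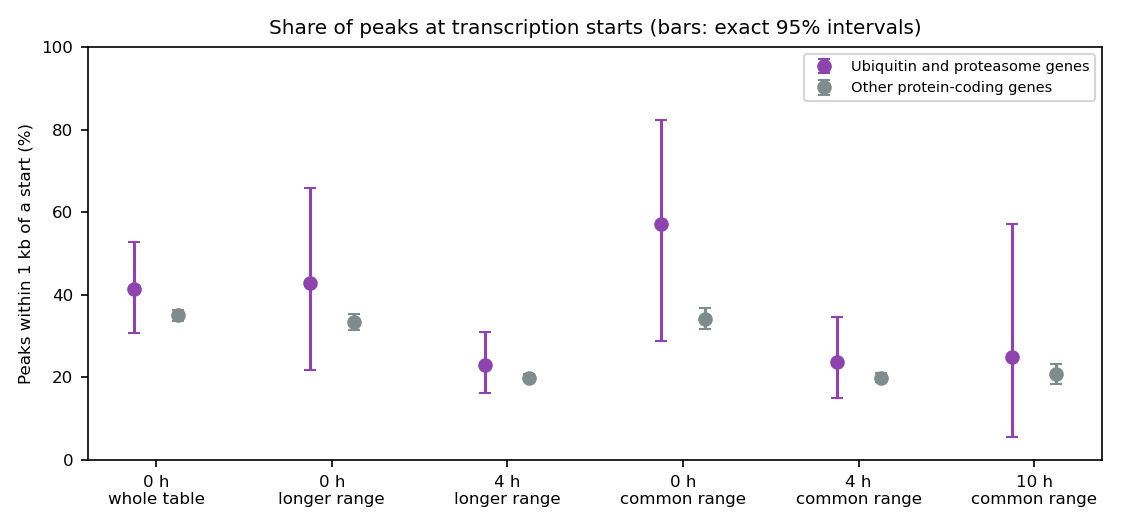
Percent of peaks within 1 kb of a transcription start (y axis) for the ubiquitin and proteasome genes (purple) and other protein-coding genes (grey) in each table and range (x axis), with exact 95% intervals as bars. Within each range both sets are lower after LPS than at 0 h, and the intervals of the 2 sets overlap in each pair.

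Few positions were shared between times. Of the 21 family points at 0 h in the longer range, 5 had a 4 h point within 500 bases (23.8%, 8.22 to 47.2%), against 18% of all 0 h points. These were in Fbxo9 (19 bases apart), Psmc6 (27), Fbxo4 (175), Psmb5 (373) and Psmd1 (403), and all but that of Psmd1, which is distal, were at starts. The windows of Psmc6 and Fbxo9 printed above show the closest of them. Seen from 4 h, 5 of 139 points had a 0 h point that near (3.60%, 1.18 to 8.19%), against 4.51% of all, so most 4 h peaks stood where no 0 h peak was listed. The 0 h point of Usp25 was 744 bases from its nearest 4 h point.

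At 10 h, 3 of 12 family points lay within 500 bases of a 4 h point (25.0%), against 20.3% of all points in the common range. They were in Ube2g2 (83 bases), Fbxw11 (129) and Trim25 (391). None of the 14 points at 0 h and of the 12 at 10 h lay within 500 bases of a point of the other time, against 7.39% and 7.99% of all points. The intervals of the family shares, 0 to 23.2% and 0 to 26.5%, include those values. Fbxo4 had 1 peak at each time. Its points at 0 h and 4 h stood at the start and its 10 h point 18257 bases past the 5′ end, behind the gene.

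A peak is assigned to its nearest start, so the gene named is not always the gene that holds the point. Inside the RefSeq span of the named gene lay 61.0% of the family points at 0 h, 65.5% at 4 h and 66.7% at 10 h. These shares and the counts that follow were not computed over all peaks, so they are no comparison with other genes. The tables annotate 13 of the 82 points at 0 h (8 genes) and 11 of the 139 at 4 h (7 genes) in an intron of another gene. All 4 Psma6 points at 4 h were in introns of 1110008L16Rik, 11349 to 37707 bases ahead of Psma6, an alpha-ring subunit gene. Of the 4 Ube2l6 points 1 lay in Smtnl1, and 1 Usp50 point lay in Usp8, another family gene 1.735 kb away.

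Family genes also neighbour each other in 3 more places. Fbxl22 and Usp3 on chromosome 9 are 0.045 kb apart, Fbxo22 and Ube2q2 on the same chromosome 1.405 kb, and Trim47 and Trim65 on chromosome 11 14.472 kb. The single 0 h point of Fbxl22 lies in the span of Usp3. At starts the same holds for genes facing the other way, since some promoter points have a second start on the opposite strand within 1 kb. Among promoter points of genes with a RefSeq promoter window, this held for 4 of 23 family points at 0 h (17.4%) and 4 of 26 at 4 h (15.4%), against 17.0% and 12.4% of all. Fbxo9 and Cilk1 formed such a pair at both times.

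Other genes of the ubiquitin system, taken from lists of 83 genes, were named at 0 h in 30 cases (36.1%), with the same 15.6% of all protein-coding genes beside it. These lists hold well-studied genes, and what such a choice does to the share was not tested. In the longer range, 32 of them went from 44 to 119 peaks. All peaks of this range went from 2225 to 9045, a 4.07-fold growth, so these genes grew by less. More peaks at 4 h were listed for 24 of the 32 genes (75.0%) and fewer for 4, against 80.9% and 10.8% of all genes. Ligases of the HECT and RING types were named at 0 h in 17 of 31 cases. They went from 29 to 68 peaks, also a smaller growth than that of all peaks. Among them Peli1, an E3 ligase of Toll-like receptor signalling, had 4, 27 and 2 peaks, and Traf6, which builds lysine 63-linked chains, had 0 and 5. Cblb had 8 peaks at 0 h and 4 at 4 h, and Rbck1, a subunit of the linear-chain ligase, 2 and 0.

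Deubiquitinases outside the Usp family went from 5 to 20 peaks in that range, beside the 4.07-fold growth of all peaks. Tnfaip3, which encodes the NF-κB inhibitor A20, took most of them with 1, 14 and 5 peaks at 0, 4 and 10 h. The ubiquitin gene Ubb had 2 peaks at each time, while the cullin-RING core genes went from 1 to 7 peaks. Nfe2l1, the transcription factor that drives proteasome genes, had 4 peaks at 0 h and lies beyond the LPS tables, and its relative Nfe2l2 had 0, 3 and 2. Ubb thus had as many peaks at 10 h as at 0 h, whereas Peli1 and Tnfaip3 had most at 4 h.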

How the data were processed

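Chromatin bound by hnRNP UL1 in RAW 264.7 cells was sequenced in 1 ChIP library each at 0, 4 and 10 h of LPS, grouped by sample title. The submitters' processing notes name MACS2 2.1.0, BWA 0.7.12, CASAVA 1.8 and the build GRCm38 (mm10), with neither roles nor settings. The authors deposited 1 peak table per ChIP sample, with, per the file headers, point position, annotation class, nearest gene and distance to its start. No column gives a height, q-value or depth: depth is unknown, and peaks were counted unweighted. The sources used here do not state whether a point is a summit or a midpoint, or whether the input was used.

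Counting used Python 3.11.15, pandas 2.3.3 and scipy 1.17.1. The last row of the 4 h table, which is incomplete, and both genes at which the LPS tables end were left out, since the rows of those genes may be cut short. Intervals are Clopper-Pearson, or conditional on the sum of both counts for ratios of shares, and they treat peaks as independent. Peaks of 1 gene are not, so the intervals are too narrow. The counting was tested on simulated data. RefSeq gene spans (GRCm38.p6) were matched by symbol and chromosome for all 102 genes. Genes without a peak cannot be placed in a range and are left out of its counts.

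Members and gene lists were chosen with earlier results of these data known. Genes named are those with 3 or more peaks in 1 table, with peaks at all 3 times or the most of their family, and a fixed list of well-known members. Others, such as Peli1, Tnfaip3 and those in short lists, were named after their values were seen. Some genes are counted but not reported by name here, nor drawn gene by gene.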

Additional observations from a re-analysis of the deposited data

How the results depend on the processing

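The 10 values listed for the families as a whole were recomputed under 31 alternatives. Of these, 30 stayed within the interval of the value reported. The ratio of the family share at 10 h to that at 0 h, 0.976 as reported, passed to the other side of 1 with only peaks in or within 5 kb of the named gene, at 1.12 (0.441 to 2.85), and both intervals include 1. The ratio of the family share at 4 h to that at 0 h in the longer range, 1.63 as reported, kept its direction, but its interval reached below 1 in 3 alternatives. It was 1.59 (0.999 to 2.66) with peaks of a gene within 1000 bp of each other merged, 1.53 without Usp25 and 1.47 (0.684 to 3.49) with peaks within 1 kb of a start only. The share of genes with more peaks at 4 h was 96.2% (25 of 26) among genes with 2 or more peaks at 0 h or 4 h, and 90.1% of all 1853 such genes. The values without Usp25, Trim25 and Fbxw11 in their own families were added after seeing the data. No paired analysis was possible because there is 1 library per time and no result comes from a test. Depth is unknown, so whether the larger number of peaks at 4 h goes with a deeper library was not tested.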
